A study of Mus musculus with 12 samples.

Results

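The tricarboxylic acid (TCA) cycle with its pyruvate entry and shuttles was followed through 34 genes in the left ventricle of mice that carry or lack ATF6-MER. The genes were chosen by symbol, taking every probe set whose annotation holds 1 of the 34 symbols. They cover the entry of pyruvate into mitochondria, the pyruvate dehydrogenase complex with its kinases and phosphatases, the cycle from citrate synthase to malate dehydrogenase, and the aminotransferases, malic enzymes and glutamate dehydrogenase that link the cycle to the cytosol. Of the 34 genes, 33 had a probe set with 1 gene symbol, among 18193 genes with such a probe set in all. These 33 genes had 71 probe sets. For Mpc2, a subunit of the mitochondrial pyruvate carrier, no value was used here. Pdk3, a pyruvate dehydrogenase kinase, lay below the level set as a filter on dim genes. The other 32 genes were tested among 11165 genes.

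The TCA cycle oxidises acetyl-CoA in the mitochondrial matrix and hands electrons to the respiratory chain, which makes the ATP for contraction. Pyruvate enters through the mitochondrial pyruvate carrier and is turned into acetyl-CoA by the pyruvate dehydrogenase complex, which kinases switch off and phosphatases switch on. The heart draws most of its acetyl-CoA from fatty acids, and the kinase Pdk4 is known there as the brake on glucose oxidation when fatty acids are used. The malate-aspartate shuttle, built from malate dehydrogenases and aspartate aminotransferases on both sides of the inner membrane, carries cytosolic reducing power into the matrix.

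The series used 12 male C57BL6 mice, 1 Affymetrix array per left ventricle and 3 mice per group. In ATF6-MER, the transcription factor ATF6, which answers stress of the endoplasmic reticulum (ER), is joined to a mutant domain of the mouse estrogen receptor, through which tamoxifen can switch it on. Transgenic (TG) mice carrying ATF6-MER and their non-transgenic (NTG) littermates were each given tamoxifen or vehicle. The labels give an age of 30 weeks for 11 mice and 40 weeks for TG tamoxifen 1. The sources used here do not give the promoter that drives the transgene, the tamoxifen dose or the length of treatment. The treatment field of the array titled TG vehicle 3 says tamoxifen, and its title was followed.

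Levels are log2 of the normalised array intensity, so a change of 1 is a doubling or halving of the level. In bulk tissue, fewer cells of a type and less RNA per cell cannot be told apart. Array medians ran from 648 to 834 intensity units. The transgene was checked through Esr1, which encodes the estrogen receptor that lends its domain to the fusion. Its probe set read 16.66, 16.84 and 17.15 on the TG tamoxifen arrays and 18.25, 17.96 and 17.89 on the TG vehicle arrays. On the NTG arrays it read 17.72, 10.88 and 9.89 with tamoxifen and 8.70, 7.15 and 7.27 with vehicle. The first of the NTG tamoxifen arrays therefore goes against its label and is called the array labelled NTG tamoxifen 1 here. Hspa5, the ER chaperone BiP, read 18.47, 18.47 and 18.37 in TG tamoxifen and 18.05 on the array labelled NTG tamoxifen 1. On the other arrays it read between 15.49 and 16.39. Counts are given with and without that array. For beta-actin, the array carries control probe sets at both ends of the transcript, and their 3' over 5' ratio rises as RNA degrades. In TG tamoxifen this ratio was 1.75 to 1.88, in TG vehicle 1.32 to 1.68, in NTG tamoxifen 1.78 to 1.97 and in NTG vehicle 2.12 to 2.43. With tamoxifen the ratio was higher in TG and lower in NTG mice, in both without overlap, and counts from fits with the ratio as a covariate are given beside the main ones. All 12 cardiomyocyte markers tested were above the filter on dim genes.

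With tamoxifen in TG mice, at least 1 gene in each of the 5 roles of the pathway fell, though the roles differed in the share called. In TG tamoxifen against TG vehicle, 13 of the 32 genes (40.6%) passed the threshold of an adjusted p of 0.05, against a background of 24.8% of all 11165 genes. Of these, 12 fell, against a background of 14.4%, and 1 rose, against 10.4%. The median change over the 32 genes was -0.43, and over all genes -0.07. The 12 that fell were Pcx, Dlat, Pdk2, Pdk4, Idh2, Idh3b, Idh3g, Ogdh, Dlst, Suclg1, Got2 and Me3, and Pdp1 rose. The share called was 50% of 2 genes for pyruvate entry and 20% of 5 for the pyruvate dehydrogenase complex. It was 60% of 5 for its kinases and phosphatases, 42.9% of 14 for cycle enzymes and 33.3% of 6 for shuttle, malic and glutamate enzymes. For 20 of the 32 genes TG tamoxifen and TG vehicle arrays did not overlap (background 44.2%), with 16 genes lower in TG tamoxifen (background 24.4%) and 4 higher (19.8%). Without the array labelled NTG tamoxifen 1, which enters this comparison only through the shared estimate of spread, 17 of the 32 genes passed, against a background of 29.3%. Of these, 15 were lower (background 16.4%) and 2 higher (12.9%). With the beta-actin ratio as a covariate, 0 of the 32 genes and 5 of all genes passed in limma (15 and 2511 at an unadjusted p of 0.05). All 13 changes kept their direction in that fit and 11 stayed within 1.5 times their size, while Pcx moved to -0.32 (adjusted p = 0.548) and Pdk2 to -0.35 (adjusted p = 0.567). With TG vehicle 3 grouped by its treatment field instead of its title, 0 of the 32 genes and 0 of all genes passed (11 and 2280 unadjusted). Here too all 13 kept their direction, and 12 stayed within 1.5 times, with Pdk4 at -0.91 (adjusted p = 0.44). Without TG tamoxifen 1, 8 of the 32 genes passed, and 13.1% of all genes.

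**Figure D1:**
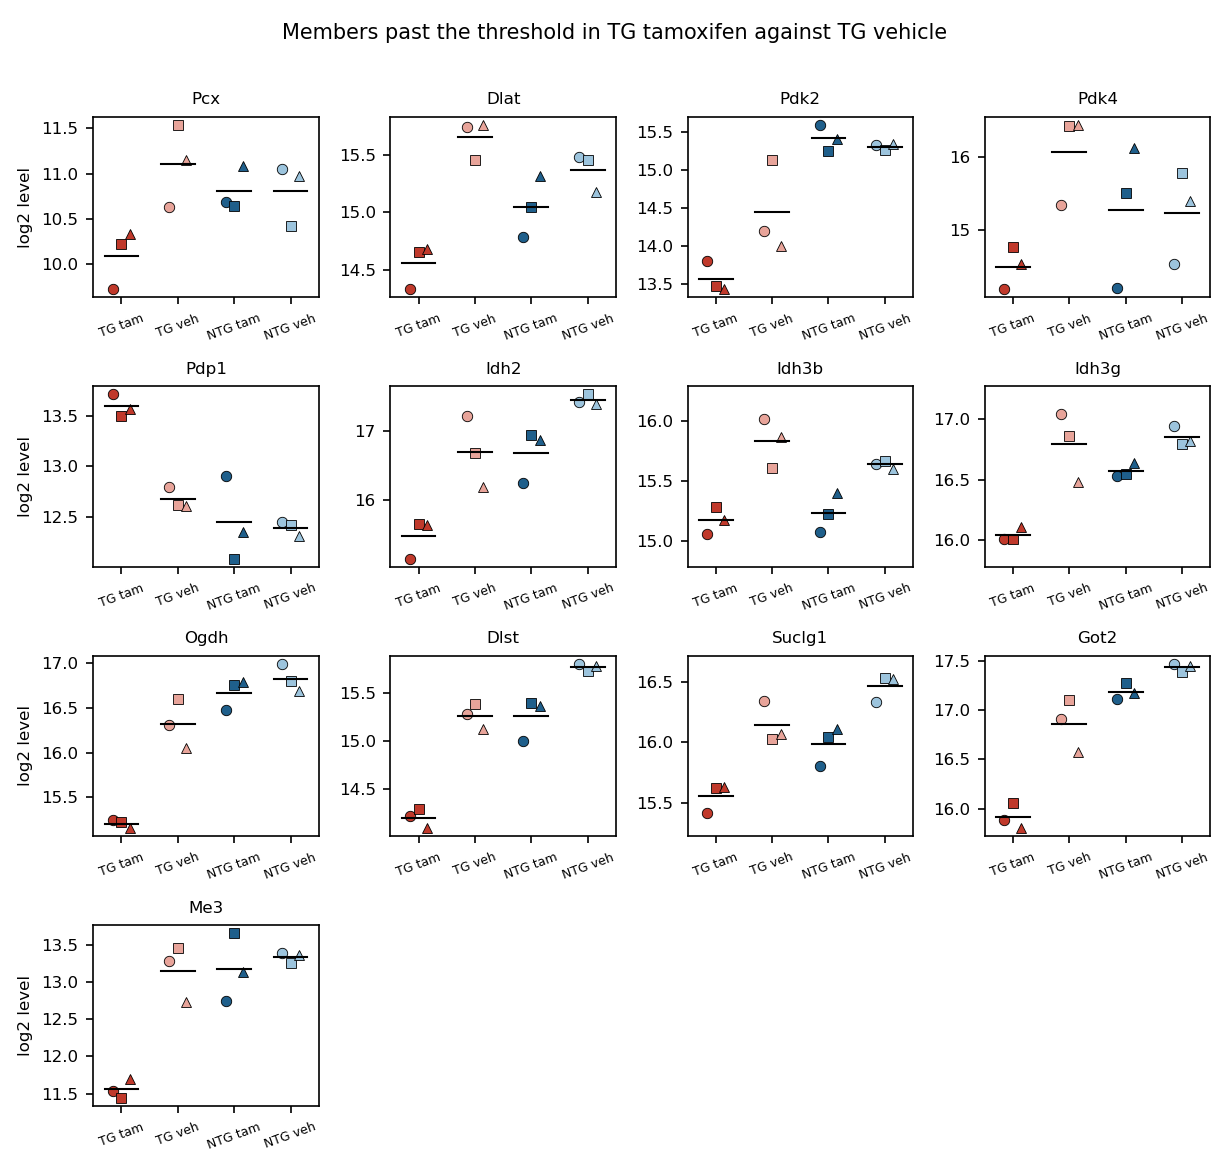
Log2 level on every array of the 13 genes that passed the threshold in TG tamoxifen against TG vehicle. Each point is 1 array (circle, square and triangle for replicates 1, 2 and 3), the line is the group mean, and each panel has its own vertical scale, which does not start at 0. The TG tamoxifen arrays lie below the TG vehicle arrays in 12 panels and above them for Pdp1.

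Pyruvate can enter the cycle as acetyl-CoA or, through pyruvate carboxylase (Pcx), as oxaloacetate. The levels of Pcx were 9.73, 10.23 and 10.33 in TG tamoxifen, 10.63, 11.54 and 11.15 in TG vehicle, 10.69, 10.64 and 11.08 in NTG tamoxifen and 11.05, 10.42 and 10.97 in NTG vehicle. The TG tamoxifen arrays lay below the TG vehicle arrays, and Pcx fell by 1.01 ± 0.27 (2.01-fold, adjusted p = 0.02). The call for Pcx was lost without TG tamoxifen 1, TG vehicle 2 or TG vehicle 3, with an adjusted p of up to 0.082. The carrier subunit Mpc1 differed by -0.46 ± 0.16 (adjusted p = 0.0527), and the arrays did not overlap.

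Of the 5 subunits of the pyruvate dehydrogenase complex, only Dlat passed in this comparison. Dlat encodes the acetyltransferase that forms the core of the complex. On the arrays, Dlat stood at 14.33, 14.66 and 14.68 in TG tamoxifen, 15.74, 15.46 and 15.76 in TG vehicle, 14.79, 15.05 and 15.31 in NTG tamoxifen and 15.48, 15.45 and 15.17 in NTG vehicle. All 3 TG tamoxifen arrays were below the other 9 arrays, and Dlat fell by 1.09 ± 0.19 (2.13-fold, adjusted p = 0.00339). The probe set that stood for Dlat is marked by the platform as possibly matching several transcripts. Changes of the other subunits ran from -0.15 for Pdhx, which binds Dld to the core, to 0.36 for Pdhb, a subunit of the pyruvate decarboxylase, and the intervals of both included 0.

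The enzymes that set the activity of the complex moved in both directions. Pdk2 and Pdk4 are kinases that inactivate it. Pdk2 read 13.80, 13.47 and 13.43 in TG tamoxifen, 14.19, 15.14 and 14.00 in TG vehicle, 15.60, 15.25 and 15.42 in NTG tamoxifen and 15.33, 15.27 and 15.34 in NTG vehicle. TG vehicle 2 read close to the NTG arrays, the other TG vehicle arrays lay between them and TG tamoxifen, and Pdk2 fell by 0.88 ± 0.26 (1.84-fold, adjusted p = 0.0307). The levels of Pdk4 were 14.18, 14.75 and 14.53 in TG tamoxifen, 15.34, 16.43 and 16.45 in TG vehicle, 14.20, 15.51 and 16.14 in NTG tamoxifen and 14.53, 15.79 and 15.39 in NTG vehicle. Here the array labelled NTG tamoxifen 1 and NTG vehicle 1 read as low as TG tamoxifen, and Pdk4 fell by 1.59 ± 0.48 (3-fold, adjusted p = 0.0342). Both kinases lost the call without any 1 of several arrays. For Pdk2 these were each TG tamoxifen array and TG vehicle 2, with an adjusted p of up to 0.0883. For Pdk4 they were each TG tamoxifen array, TG vehicle 2 and TG vehicle 3, with an adjusted p of up to 0.109. Pdp1, the catalytic subunit of a phosphatase that reactivates the complex, went the other way. On the arrays, Pdp1 stood at 13.72, 13.50 and 13.57 in TG tamoxifen, 12.79, 12.62 and 12.61 in TG vehicle, 12.91, 12.09 and 12.35 in NTG tamoxifen and 12.45, 12.42 and 12.31 in NTG vehicle. The TG tamoxifen arrays were above all others, and Pdp1 rose by 0.92 ± 0.20 (1.9-fold, adjusted p = 0.00852). That value is from the brighter Pdp1 probe set. The other, 1438201_at, read 12.36, 12.61 and 13.16 in TG tamoxifen and 12.32, 12.30 and 12.64 in TG vehicle, with overlap, and differed by 0.29 ± 0.25 (adjusted p = 0.446). With the mean of both probe sets the change was 0.61 (adjusted p = 0.0547). The call for Pdp1 was also lost without both arrays with conflicting labels. The kinase Pdk1 differed by 0.02 ± 0.18 between the TG groups, with an interval of -0.38 to 0.42. The other phosphatase, Pdp2, differed by -1.20 ± 0.47 (adjusted p = 0.0841). Pdk3, which was not tested, read from 6.85 to 10.53 over the 12 arrays.

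Of the 14 genes listed as cycle enzymes, which include the cytosolic enzymes Aco1 and Idh1, 6 fell and 0 rose with tamoxifen in TG mice (7 at an unadjusted p of 0.05 in limma). They were Idh2, Idh3b, Idh3g, Ogdh, Dlst and Suclg1. Idh2, the mitochondrial isocitrate dehydrogenase that makes NADPH, read 15.17, 15.66 and 15.65 in TG tamoxifen, 17.21, 16.68 and 16.19 in TG vehicle, 16.25, 16.95 and 16.87 in NTG tamoxifen and 17.42, 17.53 and 17.38 in NTG vehicle. The TG tamoxifen arrays lay below all others, and Idh2 fell by 1.20 ± 0.27 (2.3-fold, adjusted p = 0.00967). Idh3b and Idh3g are the regulatory subunits of the NAD-dependent isocitrate dehydrogenase of the cycle. Idh3b read 15.06, 15.29 and 15.17 in TG tamoxifen, 16.01, 15.61 and 15.86 in TG vehicle, 15.07, 15.22 and 15.40 in NTG tamoxifen and 15.64, 15.66 and 15.60 in NTG vehicle. Idh3b fell by 0.66 ± 0.16 (1.58-fold, adjusted p = 0.0141) against TG vehicle, while 2 NTG tamoxifen arrays read within the TG tamoxifen range. The call for Idh3b was lost without TG tamoxifen 1, with an adjusted p of up to 0.0595. The levels of Idh3g were 16.01, 16.01 and 16.11 in TG tamoxifen, 17.04, 16.86 and 16.48 in TG vehicle, 16.53, 16.55 and 16.64 in NTG tamoxifen and 16.95, 16.79 and 16.82 in NTG vehicle. For Idh3g all 3 TG tamoxifen arrays were below the other 9, and Idh3g fell by 0.75 ± 0.17 (1.68-fold, adjusted p = 0.00907).

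The alpha-ketoglutarate dehydrogenase complex holds Ogdh, which decarboxylates alpha-ketoglutarate, and Dlst, the succinyltransferase core. On the arrays, Ogdh stood at 15.24, 15.22 and 15.16 in TG tamoxifen, 16.30, 16.60 and 16.05 in TG vehicle, 16.47, 16.75 and 16.78 in NTG tamoxifen and 16.99, 16.80 and 16.69 in NTG vehicle. Ogdh fell by 1.11 ± 0.18 (2.16-fold, adjusted p = 0.00251). Dlst read 14.22, 14.29 and 14.09 in TG tamoxifen, 15.28, 15.39 and 15.12 in TG vehicle, 15.00, 15.40 and 15.37 in NTG tamoxifen and 15.81, 15.74 and 15.78 in NTG vehicle. Dlst fell by 1.07 ± 0.16 (2.09-fold, adjusted p = 0.00207). For both genes the TG tamoxifen arrays were below all others. Dld, the dehydrogenase that this complex shares with the pyruvate dehydrogenase complex, differed by -0.11 ± 0.28 (adjusted p = 0.803). Suclg1, the subunit common to both forms of succinyl-CoA synthetase, read 15.41, 15.62 and 15.63 in TG tamoxifen, 16.34, 16.02 and 16.07 in TG vehicle, 15.80, 16.05 and 16.11 in NTG tamoxifen and 16.34, 16.53 and 16.52 in NTG vehicle. Suclg1 fell by 0.59 ± 0.16 (1.51-fold, adjusted p = 0.022), with all TG tamoxifen arrays below the other 9. The call for Suclg1 was lost without TG tamoxifen 1, TG tamoxifen 2 or TG vehicle 1, with an adjusted p of up to 0.0873.

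The other genes listed as cycle enzymes did not pass. Citrate synthase (Cs), which joins acetyl-CoA to oxaloacetate, differed by -0.00 ± 0.16 between the TG groups, with an interval of -0.34 to 0.34. In a less bright Cs probe set, 1422578_at, the arrays read 16.42, 16.45 and 16.45 in TG tamoxifen, below 16.83, 16.69 and 16.54 in TG vehicle. In 1422577_at they overlapped. Mdh2, the mitochondrial malate dehydrogenase that closes the cycle, differed by -0.06 ± 0.14, with an interval of -0.36 to 0.24. Aco1, the cytosolic aconitase, differed by -0.12 ± 0.24 and Idh1, the cytosolic isocitrate dehydrogenase, by -0.72 ± 0.35, both with overlapping arrays. The beta subunits of succinyl-CoA synthetase differed by -0.38 ± 0.28 (Suclg2) and 0.07 ± 0.29 (Sucla2), also with overlap. Fh1, fumarase, differed by -0.46 ± 0.16 (adjusted p = 0.0523), with the TG tamoxifen arrays below the TG vehicle arrays. Without the array labelled NTG tamoxifen 1, Fh1 fell (adjusted p = 0.0396), as did Mpc1 (adjusted p = 0.0454) and Pdp2 (adjusted p = 0.0159), while Got1 rose (adjusted p = 0.0157).

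Of the 6 shuttle, malic and glutamate enzymes, Got2 and Me3 fell. Got2 is the mitochondrial aspartate aminotransferase of the malate-aspartate shuttle. The levels of Got2 were 15.89, 16.06 and 15.81 in TG tamoxifen, 16.91, 17.10 and 16.57 in TG vehicle, 17.12, 17.28 and 17.17 in NTG tamoxifen and 17.47, 17.38 and 17.44 in NTG vehicle. Got2 fell by 0.94 ± 0.17 (1.92-fold, adjusted p = 0.00362), and the TG tamoxifen arrays were below all others. Its cytosolic partner Got1 differed by 0.67 ± 0.31 in the opposite direction (adjusted p = 0.134). Me3 is the mitochondrial malic enzyme that makes NADPH while turning malate into pyruvate. On the arrays, Me3 stood at 11.54, 11.45 and 11.70 in TG tamoxifen, 13.27, 13.45 and 12.73 in TG vehicle, 12.74, 13.65 and 13.13 in NTG tamoxifen and 13.38, 13.25 and 13.37 in NTG vehicle. All TG tamoxifen arrays were below all others, and Me3 fell by 1.59 ± 0.24 (3.01-fold, adjusted p = 0.00233), with Pdk4 the largest falls among the 32 genes tested. Me1, the cytosolic malic enzyme, differed by 0.34 ± 0.24 (adjusted p = 0.33), and Glud1, glutamate dehydrogenase, by -0.41 ± 0.16 (adjusted p = 0.0886).

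When 1 array at a time was left out, 8 of the 13 genes passed in all 12 fits: Dlat, Pdp1, Idh2, Idh3g, Ogdh, Dlst, Got2 and Me3.

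**Figure D2:**
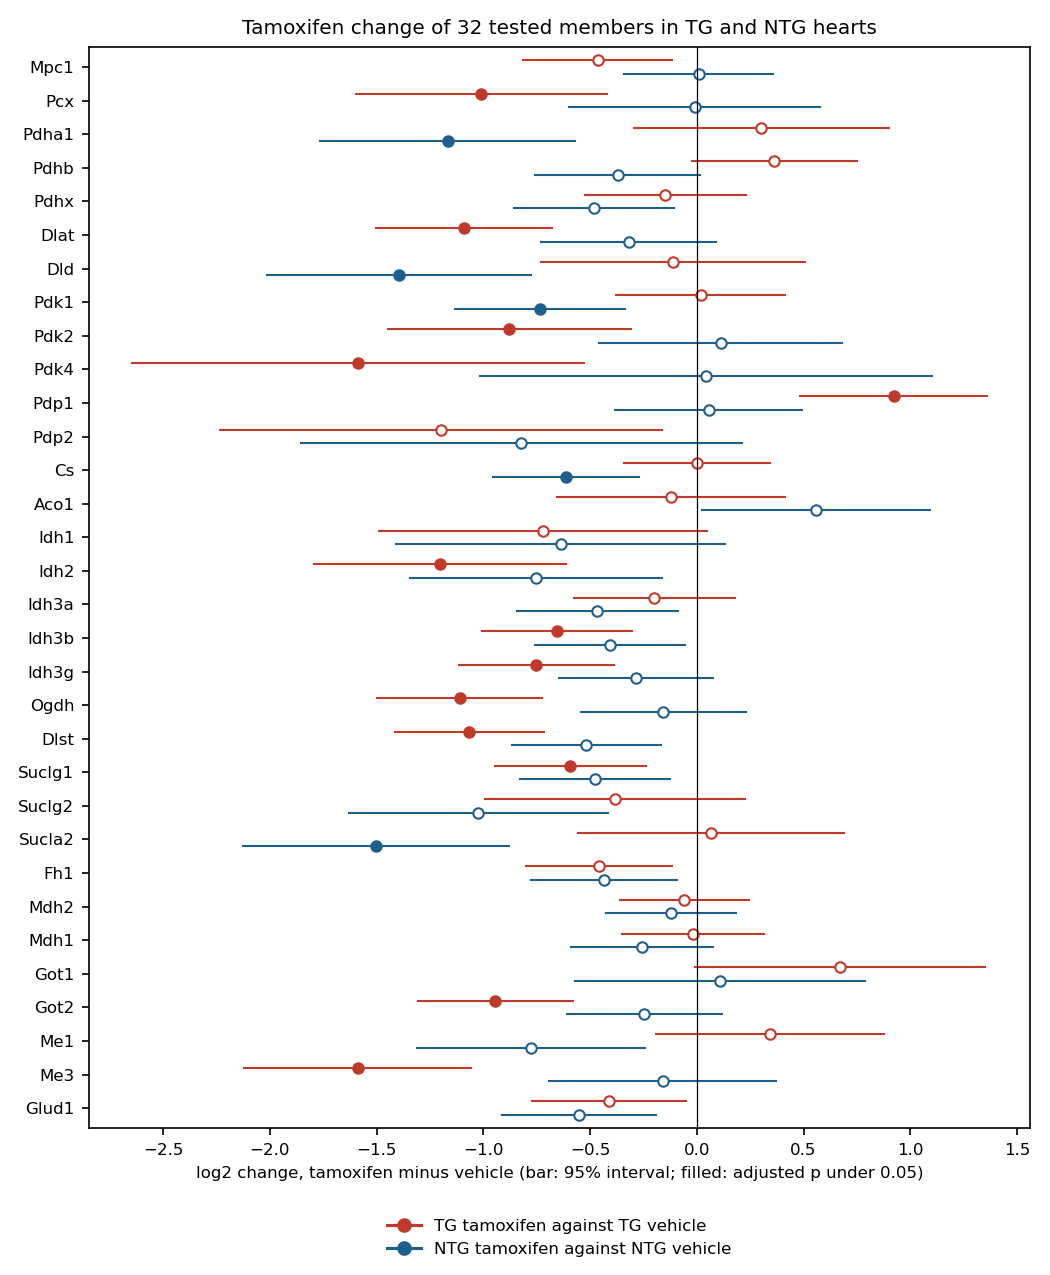
Log2 change of the 32 tested genes in TG tamoxifen against TG vehicle and in NTG tamoxifen against NTG vehicle, as points with 95% intervals, ordered by role. Filled points passed the threshold in that comparison, 13 in TG and 5 in NTG mice, and no gene is filled in both.

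The promoters of the genes were searched for motifs of factors linked to mitochondrial genes or to ER stress, in windows from 250 bases before to 50 bases after each RefSeq start (build GRCm38.p6). Of the genes, 32 had an entry, with 43 windows among 32851 in all. Both strands were searched for 8 exact motifs. TCAAGGTCA (estrogen-related receptors), GCGCA joined to TGCGC (NRF1), CCAAT followed after 9 bases by CCACG and TGACGTGG (ER stress elements, which share CCACG on opposite strands), and AGGTCA repeated after 1 base (PPAR with RXR) were found in 0 of the 32 genes. Of all windows, 0.423%, 0.971%, 0.119%, 0.676% and 0.0396% hold them, in that order. CCGGAAGT (ETS factors, 3.89% of all windows) was found for Dlst, AAGATGGCG (YY1, 1.4%) for Idh3g, and TTGCATCA (the element bound by ATF4 with C/EBP, 0.895%) for Got1. A match describes letters, not a bound site. The windows with a match are shown as the places where these letters lie, on the gene's strand with the motif or its reverse complement in capitals. They are chr12:85110583-85110882 (plus strand) for Dlst, chrX:73786848-73787147 (minus) for Idh3g and chr19:43524556-43524855 (minus) for Got1.
Dlst: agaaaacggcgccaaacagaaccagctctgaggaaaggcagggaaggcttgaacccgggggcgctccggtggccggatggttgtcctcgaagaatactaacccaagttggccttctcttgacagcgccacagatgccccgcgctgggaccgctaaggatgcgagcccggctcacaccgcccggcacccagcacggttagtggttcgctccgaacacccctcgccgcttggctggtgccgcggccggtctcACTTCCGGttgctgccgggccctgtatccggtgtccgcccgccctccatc
Idh3g: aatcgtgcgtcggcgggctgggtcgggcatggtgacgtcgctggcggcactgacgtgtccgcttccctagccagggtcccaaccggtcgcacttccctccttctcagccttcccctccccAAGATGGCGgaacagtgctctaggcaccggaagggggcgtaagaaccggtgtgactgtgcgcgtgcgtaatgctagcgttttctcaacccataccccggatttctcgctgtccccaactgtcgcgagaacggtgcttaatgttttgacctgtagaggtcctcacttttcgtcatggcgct
Got1: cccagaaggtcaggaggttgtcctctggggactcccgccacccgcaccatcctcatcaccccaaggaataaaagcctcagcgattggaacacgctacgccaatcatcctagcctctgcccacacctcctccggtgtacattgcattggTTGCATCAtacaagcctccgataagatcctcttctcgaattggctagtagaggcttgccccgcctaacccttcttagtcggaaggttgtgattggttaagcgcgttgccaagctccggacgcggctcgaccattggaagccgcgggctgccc

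Further probe sets of the same genes were compared in a fit of the 22518 probe sets above the filter, a comparison added after the data had been seen. Of 62 probe sets of the genes above the filter, 21 fell and 1 rose in TG tamoxifen against TG vehicle (35.5%, background 18.3%, with 9.81% lower and 8.54% higher), and those that fell belong to 14 genes. Idh3a, the catalytic subunit of NAD-dependent isocitrate dehydrogenase, differed between its probe sets. The brightest, 1432016_a_at, stood for the gene and read 16.90, 16.99 and 16.96 in TG tamoxifen, 17.28, 16.91 and 17.27 in TG vehicle, 15.95, 16.10 and 15.73 in NTG tamoxifen and 16.60, 16.35 and 16.23 in NTG vehicle. Its change in TG mice was -0.20 ± 0.18 in this fit (adjusted p = 0.474). Probe set 1422501_s_at read 13.99, 14.16 and 14.24 in TG tamoxifen, 16.07, 15.96 and 16.12 in TG vehicle, 14.09, 15.38 and 14.78 in NTG tamoxifen and 15.71, 15.57 and 15.41 in NTG vehicle, and fell by 1.92 ± 0.27 in TG mice (adjusted p = 0.00272). Probe set 1422500_at fell by 1.79 ± 0.27 (adjusted p = 0.00281) and 1447701_x_at by 1.24 ± 0.27 (adjusted p = 0.0105). So 3 of the 4 Idh3a probe sets fell where the brightest had no call.

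The probe sets of Mdh1, the cytosolic malate dehydrogenase, passed in opposite directions in TG tamoxifen against NTG tamoxifen. The brightest, 1454925_x_at, read 17.96, 17.96 and 18.21 in TG tamoxifen, 18.07, 17.98 and 18.13 in TG vehicle, 17.56, 17.46 and 17.35 in NTG tamoxifen and 17.84, 17.56 and 17.74 in NTG vehicle, higher in TG tamoxifen by 0.59 ± 0.16 (adjusted p = 0.0144). Probe set 1438338_at read 11.01, 11.16 and 11.20 in TG tamoxifen, 12.16, 12.39 and 11.88 in TG vehicle, 12.38, 12.58 and 12.50 in NTG tamoxifen and 11.48, 11.74 and 12.29 in NTG vehicle. It was lower in TG tamoxifen than in NTG tamoxifen, with a difference of -1.36 ± 0.22 (adjusted p = 0.00101), and lower than in TG vehicle, with -1.02 ± 0.22 (adjusted p = 0.0108). A dimmer probe set of Ogdh, 1445632_at, read 6.82, 8.92 and 6.41 in TG tamoxifen, all below the filter level of 9.42, and 10.87, 10.92 and 10.86 in TG vehicle. It fell by 3.50 ± 0.57 (adjusted p = 0.00366), in the direction of the brighter Ogdh probe set.

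Other genes called in TG mice had further probe sets that went with the brightest or did not. The further probe sets of Dlat, 1426264_at (-0.88 ± 0.21, adjusted p = 0.017) and 1452005_at (-1.09 ± 0.25, adjusted p = 0.0133), fell too, as did 1416788_a_at of Idh3g (-0.74 ± 0.17, adjusted p = 0.012). For Got2, 1417716_at fell by 1.33 ± 0.31 (adjusted p = 0.0152), while 1430397_at differed by -0.14 ± 0.33 (adjusted p = 0.806). The second Idh2 probe set, 1453601_at, read 9.43, 9.64 and 9.68 in TG tamoxifen and 10.01, 8.98 and 9.78 in TG vehicle, close to the filter level, and differed by -0.01 ± 0.35 (adjusted p = 0.991). For Idh3b, 1418885_a_at read 11.63, 11.67 and 11.90 in TG tamoxifen and 11.45, 11.12 and 11.54 in TG vehicle. Its TG tamoxifen arrays were thus above those of TG vehicle, opposite to the brightest probe set, with a difference of 0.36 ± 0.21 (adjusted p = 0.25). The third Idh3b probe set, 1441271_at, differed by -0.58 ± 0.22 (adjusted p = 0.0819). Further Dlst probe sets differed by -0.11 ± 0.25 (1437775_at, adjusted p = 0.795) and -0.56 ± 0.54 (1431011_at, adjusted p = 0.5). With the mean of a gene's probe sets in place of the brightest, 10 genes passed in TG tamoxifen against TG vehicle, and 17.9% of all genes. Idh2 (-0.60, adjusted p = 0.152), Idh3b (-0.29, adjusted p = 0.286), Dlst (-0.71, adjusted p = 0.0767) and Pdp1 lost the call, and Idh3a gained one (-1.28, adjusted p = 0.002).

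**Figure D3:**
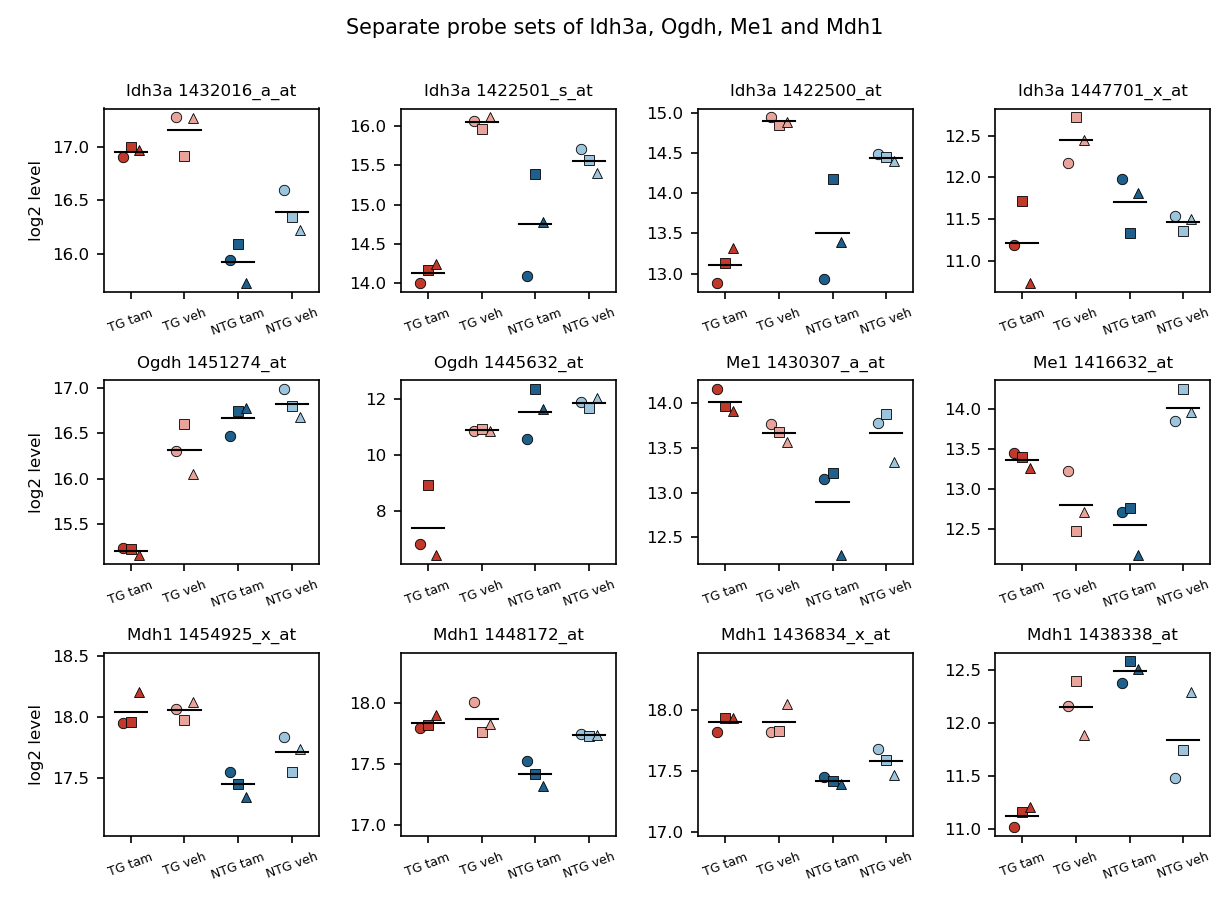
Log2 level on every array of the separate probe sets above the filter of Idh3a, Ogdh, Me1 and Mdh1, 1 panel each, brightest first. Each point is 1 array (circle, square and triangle for replicates 1, 2 and 3), the line is the group mean, and panel scales differ and do not start at 0. For Idh3a the first panel has TG tamoxifen above NTG tamoxifen, and for Mdh1 the last panel has TG tamoxifen as the lowest group where the other 3 do not.

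Markers of cell types were read in the same comparison, where 24.8% of all genes were called, 14.4% lower and 10.4% higher. Cardiomyocyte (16.7%) and fibroblast markers (28.6%) were called below or near that share. Macrophage and leukocyte (37.5%) and endothelial markers (57.1%) were above it. Between TG tamoxifen and TG vehicle, 2 of 12 cardiomyocyte markers fell (Actn2 and Ryr2), and the summed cardiomyocyte signal was 3201000 to 3282000 intensity units against 3483000 to 3586000. Of 8 macrophage and leukocyte markers tested, 3 rose (Ptprc, Ccr2 and Aif1), with a summed signal of 96490 to 149400 against 54400 to 105100. Of 7 endothelial markers, 4 fell (Tie1, Kdr, Emcn and Cdh5), at 32950 to 36060 against 41830 to 53980. Of 7 fibroblast markers, Col3a1 rose and Dcn fell, at 200200 to 230600 against 230400 to 265000. Smooth muscle and pericyte markers had 0 calls of 5 (1 at an unadjusted p of 0.05 in limma), at 134000 to 177800 against 138400 to 151200. The only adipocyte marker above the filter, Cidea, fell, and the list summed to 5608 to 6304 against 10400 to 15970. The lymphocyte markers Cd3e and Cd79a, the adipocyte markers Adipoq, Cidec, Lep and Ucp1 and the erythrocyte marker Hba-a1 were below the filter. The part of these markers in the results was not tested.

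In mice without the transgene, tamoxifen was followed by lower levels of 5 genes. In NTG tamoxifen against NTG vehicle, 5 of the 32 genes (15.6%) passed, against a background of 4.37% of all genes. All 5 fell, where 3.69% of all genes fell, and 0 rose, where 0.681% of all genes did. They were Pdha1, Dld, Pdk1, Cs and Sucla2. The median change was -0.42 over the 32 genes and -0.01 over all genes. None of the 5 was among the 13 genes called in TG mice. Yet for 19 of the 32 genes NTG tamoxifen and NTG vehicle arrays did not overlap (3367 of all 11165 genes). Of these, 18 were lower in NTG tamoxifen (1896 of all genes) and 1 higher (1471). Among genes that fell in TG mice, Idh2, Idh3b, Idh3g, Dlst, Suclg1 and Got2 were also lower without overlap in NTG tamoxifen. Pcx, Dlat, Pdk2, Pdk4, Ogdh and Me3 overlapped there. Over all genes, 144 were called in both genotypes, of 2774 in TG and 488 in NTG mice. Without the array labelled NTG tamoxifen 1, 3 of the 32 genes passed (Pdha1, Dld and Sucla2, all lower), against a background of 3.75%, or 3.03% lower. Without NTG tamoxifen 3, or without any 1 of the NTG vehicle arrays, 0 of the 32 genes passed in limma (12 to 16 unadjusted). In those fits 0% to 0.206% of all genes passed. So none of the 5 calls held in all 12 fits that left out 1 array. With each array centred on its median in place of quantile normalisation, 12 passed, and 8.71% of all genes. With no filter on dim genes 0 passed (15 unadjusted), as with only the NTG arrays in the fit (16 unadjusted) and without both arrays with conflicting labels (16 unadjusted). In these fits 0.022%, 0.188% and 0.779% of all genes passed, in that order. With the mean of a gene's probe sets 2 passed (Suclg2 and Me1), neither of them among the 5, with Pdha1 at -0.77 (adjusted p = 0.167), Dld at -0.77 (adjusted p = 0.281) and Sucla2 at -0.53 (adjusted p = 0.377). In that setting 1.24% of all genes passed. The mean takes in probe sets below the filter, such as 1433263_at of Dld, which averaged 7.09 over the 12 arrays. Both Pdha1 probe sets lay above the filter, with averages of 16.74 and 15.03. Without any 1 of the TG tamoxifen arrays, which enter through the shared estimate of spread, 2 passed, with 2.41% to 2.87% of all genes. With the beta-actin ratio as a covariate 0 of the 32 genes passed (4 unadjusted), and 0 of all genes (990 unadjusted). All 5 changes kept their direction in that fit, but only 1 stayed within 1.5 times its size. With the mean of a gene's probe sets all 5 kept their direction and 2 stayed within 1.5 times.

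**Figure D4:**
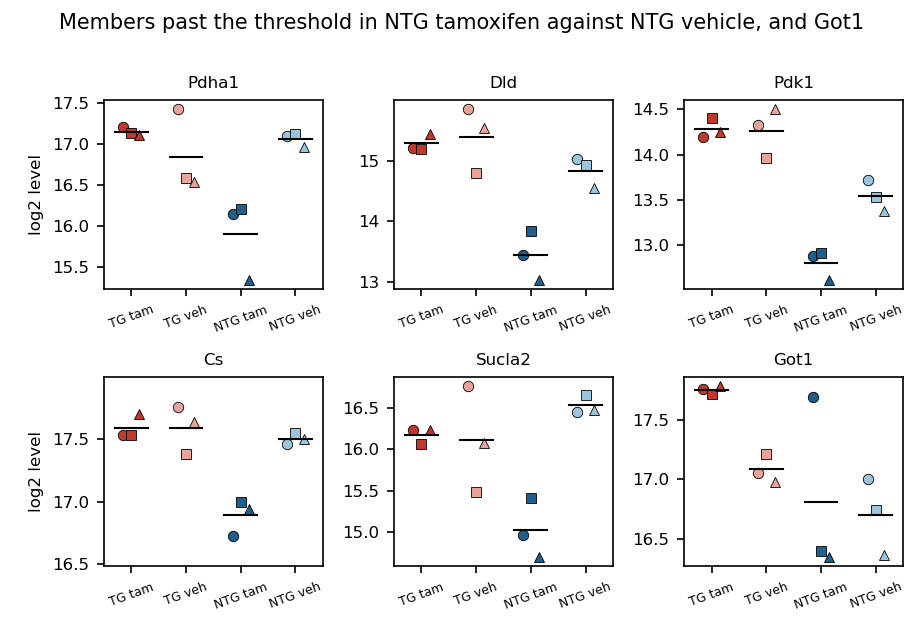
Log2 level on every array of the 5 genes that passed the threshold in NTG tamoxifen against NTG vehicle, and of Got1. Each point is 1 array (circle, square and triangle for replicates 1, 2 and 3), the line is the group mean, and panel scales differ and do not start at 0. For Pdha1, Dld, Pdk1, Cs and Sucla2 the NTG tamoxifen arrays are the lowest group, and for Got1 the array labelled NTG tamoxifen 1 reads with TG tamoxifen.

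Pdha1 encodes the alpha subunit of the pyruvate decarboxylase of the complex. Pdha1 read 17.21, 17.13 and 17.11 in TG tamoxifen, 17.43, 16.58 and 16.53 in TG vehicle, 16.15, 16.21 and 15.33 in NTG tamoxifen and 17.10, 17.13 and 16.96 in NTG vehicle. The NTG tamoxifen arrays lay below all others, and Pdha1 fell by 1.17 ± 0.27 (2.25-fold, adjusted p = 0.038). That value is from the brighter Pdha1 probe set. The other, 1449137_at, read 14.22, 13.91 and 13.82 in NTG tamoxifen and 14.99, 14.42 and 13.70 in NTG vehicle, with overlap. The levels of Dld were 15.21, 15.20 and 15.45 in TG tamoxifen, 15.86, 14.79 and 15.55 in TG vehicle, 13.45, 13.84 and 13.03 in NTG tamoxifen and 15.03, 14.93 and 14.54 in NTG vehicle. For Dld too the NTG tamoxifen arrays were the lowest, and Dld fell by 1.40 ± 0.28 (2.63-fold, adjusted p = 0.025). On the arrays, Pdk1 stood at 14.19, 14.40 and 14.25 in TG tamoxifen, 14.32, 13.96 and 14.50 in TG vehicle, 12.88, 12.92 and 12.62 in NTG tamoxifen and 13.72, 13.53 and 13.38 in NTG vehicle. Pdk1 fell by 0.74 ± 0.18 (1.67-fold, adjusted p = 0.044), to levels below both TG groups as well. Cs read 17.53, 17.53 and 17.70 in TG tamoxifen, 17.75, 17.38 and 17.64 in TG vehicle, 16.73, 17.00 and 16.95 in NTG tamoxifen and 17.46, 17.55 and 17.50 in NTG vehicle. Cs fell by 0.61 ± 0.16 (1.53-fold, adjusted p = 0.0499), again with the NTG tamoxifen arrays below the other 9. These values are from the brightest Cs probe set. In 1422578_at the mean was lowest in TG tamoxifen, at 16.44, with 16.57 in NTG tamoxifen, 16.69 in TG vehicle and 17.30 in NTG vehicle. In 1422577_at it was lowest in NTG tamoxifen, at 14.88, with 15.27 in NTG vehicle. Sucla2 is the subunit that makes succinyl-CoA synthetase form ATP. The levels of Sucla2 were 16.23, 16.06 and 16.23 in TG tamoxifen, 16.76, 15.48 and 16.08 in TG vehicle, 14.96, 15.41 and 14.70 in NTG tamoxifen and 16.45, 16.65 and 16.47 in NTG vehicle. The NTG tamoxifen arrays were the lowest, and Sucla2 fell by 1.50 ± 0.29 (2.83-fold, adjusted p = 0.0238). Its GTP-forming counterpart Suclg2 differed by -1.02 ± 0.28 (adjusted p = 0.0616). With every probe set above the filter tested, 7 of 62 fell (11.3%, background 3.89%, with 3.2% lower), 1 each of 7 genes. One of them, probe set 1416632_at of Me1, fell by 1.46 ± 0.23 (adjusted p = 0.0212), while the brighter Me1 probe set differed by -0.78 ± 0.25 (adjusted p = 0.099). Markers of cell types were read in the same comparison, where 4.37% of all genes were called. Of 5 smooth muscle and pericyte markers Rgs5 fell, and their summed signal was 92770 to 136600 in NTG tamoxifen against 203500 to 258200 in NTG vehicle. Of 7 fibroblast markers Lum and Postn fell, at 145500 to 191000 against 186000 to 217300. The 7 endothelial markers had 0 calls in limma (2 unadjusted), at 34830 to 45280 against 51220 to 55220, and the 8 macrophage and leukocyte markers 0 (1 unadjusted), at 46250 to 47450 against 52800 to 60550. The 12 cardiomyocyte markers had 0 calls (0 unadjusted), at 3587000 to 3723000 against 3656000 to 3719000. The part of these markers in the result was not tested.

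Without tamoxifen, carrying the transgene was followed by 1 called change. In TG vehicle against NTG vehicle, Idh3a was the only 1 of the 32 genes to pass (3.12%, background 3.63%, with 1.39% higher and 2.24% lower), with a rise of 0.76 ± 0.17 (adjusted p = 0.0398). TG vehicle and NTG vehicle arrays of Idh3a did not overlap. The call held in 4 of the 12 fits that left out 1 array, with an adjusted p of up to 0.143. With the beta-actin ratio as a covariate 0 of the 32 genes passed in limma (8 unadjusted) and 0 of all genes (1450 unadjusted), and Idh3a differed by 1.17 (adjusted p = 0.297). With median centring Idh3a lost the call (0.73, adjusted p = 0.0616) and Got2 passed instead, lower in TG vehicle (-0.61, adjusted p = 0.0494). When single arrays were left out, the Idh3a call was lost without TG vehicle 1, TG vehicle 3, any TG tamoxifen array or any NTG vehicle array. Pdk1 differed by 0.72 ± 0.18 (adjusted p = 0.0518) and Pdk2 by -0.87 ± 0.26 (adjusted p = 0.0838), both without overlap. Without the array labelled NTG tamoxifen 1, 3 genes passed (background 7.28%, with 3.1% higher and 4.18% lower). These were Idh3a (adjusted p = 0.0308) and Pdk1 (adjusted p = 0.0401), which rose, and Dlst (adjusted p = 0.0481), which fell. The Pdk1 values are from its brightest probe set. In 1435836_at of Pdk1 the mean was 13.65 in TG vehicle and 13.95 in NTG vehicle, and in 1423748_at 12.42 and 12.41. With every probe set above the filter tested, 3 of 62 were higher and 2 lower (8.06%, background 6.12%, with 3.2% higher and 2.92% lower). Among the lower was probe set 1416632_at of Me1, with a difference of -1.21 ± 0.23 (adjusted p = 0.0179), where the brighter Me1 probe set differed by 0.00 ± 0.25.

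Between the tamoxifen-treated genotypes genes of the pathway differed in both directions. The lower count was near the background with all arrays kept, but not without the array labelled NTG tamoxifen 1. In TG tamoxifen against NTG tamoxifen, 20 of the 32 genes (62.5%) passed, against a background of 39.5%. Of these, 12 were higher (background 19%) and 8 lower (20.6%) in TG tamoxifen, and the median over the 32 genes was -0.02. This comparison shares its arrays with the comparisons above. Without the array labelled NTG tamoxifen 1, 23 genes passed (background 42.9%), 12 higher (background 20.9%) and 11 lower (21.9%). Dlat (-0.62, adjusted p = 0.0225), Pdk4 (-1.34, adjusted p = 0.0271) and Suclg1 (-0.53, adjusted p = 0.0249) then passed as lower. With the beta-actin ratio as a covariate 21 genes passed (background 41.5%). The ranges of that ratio overlapped between these groups. In the 12 fits that left out 1 array, 17 of the 20 genes passed every time, and Pdp2, Idh3g and Got1 did not. With the mean of a gene's probe sets 14 genes passed (background 31.5%). That mean takes in probe sets below the filter, such as 1433263_at of Dld. Dld (0.80, adjusted p = 0.114), Pdp2 (-1.31, adjusted p = 0.0516), Cs (0.33, adjusted p = 0.125), Idh2 (-0.71, adjusted p = 0.0686), Sucla2 (0.42, adjusted p = 0.32), Mdh1 (0.10, adjusted p = 0.668) and Idh3a lost the call, and Suclg2 gained one (1.17, adjusted p = 0.00402).

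Markers of cell types were read between these groups as well, where 39.5% of all genes were called, 19% higher and 20.6% lower. Cardiomyocyte (16.7%) and fibroblast markers (28.6%) were called below that share and endothelial markers (42.9%) near it. Macrophage and leukocyte (50%) and smooth muscle and pericyte markers (80%) were above it. Of 8 macrophage and leukocyte markers 4 were higher in TG tamoxifen (Ptprc, Lyz2, Aif1 and Ccr2), with a summed signal of 96490 to 149400 against 46250 to 47450 in NTG tamoxifen. Of 5 smooth muscle and pericyte markers Pdgfrb, Myh11 and Tagln were lower and Rgs5 higher, at 134000 to 177800 against 92770 to 136600. Of 7 fibroblast markers Lum and Postn were higher, at 200200 to 230600 against 145500 to 191000, and of 7 endothelial markers Tie1, Kdr and Cdh5 were lower, at 32950 to 36060 against 34830 to 45280. Of 12 cardiomyocyte markers Actn2 and Tnni3 were lower, at 3201000 to 3282000 against 3587000 to 3723000. Cidea, the adipocyte marker above the filter, was lower. Their part in the result was not tested.

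The 12 genes higher in TG tamoxifen were Pdha1, Pdhb, Pdhx, Dld, Pdk1, Pdp1, Cs, Idh3a, Sucla2, Mdh1, Got1 and Me1. The 4 partners of Dlat in the pyruvate dehydrogenase complex are among them. For Dld the difference was 1.85 ± 0.28 (adjusted p = 7e-04), and for Pdha1 1.25 ± 0.27 (adjusted p = 0.00421). On the arrays, Pdhb stood at 17.56, 17.88 and 17.78 in TG tamoxifen, 17.48, 17.17 and 17.47 in TG vehicle, 17.03, 16.53 and 16.90 in NTG tamoxifen and 17.14, 17.22 and 17.21 in NTG vehicle. Pdhb was higher by 0.92 ± 0.18 (1.89-fold, adjusted p = 0.00219). Pdhx read 13.49, 13.49 and 13.61 in TG tamoxifen, 13.82, 13.32 and 13.89 in TG vehicle, 12.78, 12.83 and 12.81 in NTG tamoxifen and 13.33, 13.38 and 13.15 in NTG vehicle. Pdhx was higher by 0.73 ± 0.17 (1.65-fold, adjusted p = 0.00643). The TG tamoxifen arrays of Pdhb and Pdhx lay above those of NTG tamoxifen, with no overlap. Pdk1 was higher by 1.48 ± 0.18 (adjusted p = 0.000319) and Pdp1 by 1.15 ± 0.20 (adjusted p = 0.00126). The Pdp1 value is from its brighter probe set. In 1438201_at of Pdp1 the arrays overlapped, with means of 12.71 in TG tamoxifen and 12.70 in NTG tamoxifen. Sucla2 was higher by 1.15 ± 0.29 (adjusted p = 0.00821), Cs by 0.70 ± 0.16 (adjusted p = 0.00471) and Mdh1, by its brightest probe set, by 0.59 ± 0.15 (adjusted p = 0.0101). The Cs value too is from its brightest probe set. In 1422578_at of Cs the mean was 16.44 in TG tamoxifen and 16.57 in NTG tamoxifen, and in 1422577_at 15.31 and 14.88. The levels of Got1 were 17.76, 17.72 and 17.78 in TG tamoxifen, 17.05, 17.21 and 16.98 in TG vehicle, 17.69, 16.40 and 16.35 in NTG tamoxifen and 17.01, 16.74 and 16.37 in NTG vehicle. Got1 was higher by 0.94 ± 0.31 (adjusted p = 0.0313), while the array labelled NTG tamoxifen 1 read close to TG tamoxifen. Without that array the difference was 1.38 ± 0.19 (adjusted p = 0.000366). On the arrays, Me1 stood at 14.16, 13.97 and 13.91 in TG tamoxifen, 13.77, 13.68 and 13.57 in TG vehicle, 13.16, 13.22 and 12.30 in NTG tamoxifen and 13.78, 13.88 and 13.34 in NTG vehicle. Me1 was higher by 1.12 ± 0.24 (2.18-fold, adjusted p = 0.00421). The call for Idh3a, 1.03 ± 0.17 (adjusted p = 0.00105), rests on its brightest probe set. Its other probe sets differed by -0.62 to -0.39 in the fit of all probe sets and did not pass. With the mean of a gene's probe sets the Idh3a difference was -0.12 (adjusted p = 0.642).

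The 8 genes lower in TG tamoxifen were Pdk2, Pdp2, Idh2, Idh3g, Ogdh, Dlst, Got2 and Me3. The difference was -1.86 ± 0.26 for Pdk2 (adjusted p = 0.000489), -1.61 ± 0.24 for Me3 (adjusted p = 0.00066) and -1.46 ± 0.18 for Ogdh (adjusted p = 0.000309). Got2 differed by -1.27 ± 0.17 (adjusted p = 0.000383), Idh2 by -1.20 ± 0.27 (adjusted p = 0.00488), Dlst by -1.06 ± 0.16 (adjusted p = 0.000656) and Idh3g by -0.53 ± 0.17 (adjusted p = 0.0253). Pdp2 read 9.81, 9.61 and 9.68 in TG tamoxifen, 11.43, 10.09 and 11.18 in TG vehicle, 9.77, 11.67 and 11.61 in NTG tamoxifen and 11.52, 11.81 and 12.18 in NTG vehicle. For Pdp2 the array labelled NTG tamoxifen 1 read with TG tamoxifen, so the arrays overlapped, and the difference was -1.31 ± 0.47 (adjusted p = 0.045). Without that array it was -1.94 ± 0.34 (adjusted p = 0.00142). Over the 17 genes whose TG tamoxifen mean and mean of the other 2 NTG tamoxifen arrays lay at least 1 log2 unit apart, the array labelled NTG tamoxifen 1 read nearer to TG tamoxifen for 3 (Pdk4, Pdp2 and Got1) and nearer to NTG tamoxifen for 14.

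Whether tamoxifen acted differently in TG and NTG mice was tested as an interaction. It passed for 4 of the 32 genes (12.5%, background 14.3%). Pdha1 and Sucla2 had a higher change in TG mice (background 7.51%), and Ogdh and Me3 a lower one (6.76%). Without the array labelled NTG tamoxifen 1 it passed for 11 genes (background 22.8%): Pdha1, Pdhb, Dlat, Pdk4, Pdp1, Ogdh, Dlst, Sucla2, Got1, Me1 and Me3. With the beta-actin ratio as a covariate it passed for 0 of the 32 genes in limma, with 0 at an unadjusted p of 0.05. In that fit it passed for 0 of all genes (812 unadjusted). Each of the 4 calls was lost without some single arrays: Pdha1 held in 3 of 12 such fits, Ogdh in 4, Sucla2 in 5 and Me3 in 8.

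Genes around the pathway were listed apart from the 34: carriers, succinate dehydrogenase, lactate dehydrogenase and further enzymes on 1 list of 35 symbols, of which 28 were tested, and 22 transcriptional regulators of oxidative metabolism on another. With tamoxifen in TG mice, 14 of the 28 fell and 1 rose (53.6%, background 24.8%, with 14.4% lower and 10.4% higher), with a median of -0.68 against -0.07 over all genes. The lowest adjusted p-values belonged to Slc25a11, the oxoglutarate-malate carrier of the shuttle (-1.40 ± 0.17, adjusted p = 0.00159), Ldhb, a lactate dehydrogenase subunit (-1.73 ± 0.22, adjusted p = 0.00172), Slc25a13, an aspartate-glutamate carrier (-1.42 ± 0.22, adjusted p = 0.00242), and Gpt, alanine aminotransferase (-1.89 ± 0.32, adjusted p = 0.00325). In NTG mice 2 of the 28 fell (7.14%, background 4.37%), Nnt, the transhydrogenase of the inner membrane (-1.05 ± 0.23, adjusted p = 0.0303), and Sdha, the flavoprotein of succinate dehydrogenase (-0.79 ± 0.20, adjusted p = 0.0482). Of the 22 regulators, 9 fell and 1 rose in TG mice (45.5%, against the same 24.8%). The lowest adjusted p-values belonged to Klf15, a Krüppel-like factor (-3.47 ± 0.40, adjusted p = 0.00159), Rxrg, a retinoid X receptor (-2.10 ± 0.30, adjusted p = 0.00174), Ppara, the fatty acid-sensing receptor (-1.66 ± 0.26, adjusted p = 0.00249), and Hif1a, the hypoxia-inducible factor, which rose (1.15 ± 0.18, adjusted p = 0.00265). In NTG mice 0 of the 22 passed in limma, with 5 at an unadjusted p of 0.05.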

How the data were processed

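Each of the 12 left ventricles was measured on its own Affymetrix array. The authors deposited 1 intensity per probe set and array, on a linear scale. Trimmed by 2% at both ends, each array had a mean of 2500.02, which a scaling per array gives. The sources used here do not name the summarisation software. Precision is limited by the number of arrays.

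Intensities were taken as log2(value + 16). Since the array medians spanned 0.355 log2 (limit 0.2), quantile normalization was applied to the deposited log2 values. Fold changes on this offset scale understate the changes of dim genes. The probe set with the highest mean stood for a gene, and genes whose probe set was under an intensity of 670.3, the 50th percentile, were not tested. Differences were tested, two-sided, with limma 3.58.1 in R 4.3.3 in 1 fit of 4 group means (8 residual and 3.55 prior degrees of freedom), with Benjamini-Hochberg adjustment over 11165 genes and a threshold of 0.05. The ± is the standard error (SE) with n = 3 arrays per group, and intervals are at 95%. The fit was tested on simulated data. Groups came from the titles.

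The members and lists were chosen with earlier results of these data known. The rule for named genes gave every array's value for genes past the threshold in any comparison, and of each other list up to 4 genes with the smallest adjusted p. Probe sets marked as possibly matching several transcripts stood for Dlat, Aco1, Idh1, Idh3b, Suclg2 and Mdh1. Replicate numbers were not used to pair arrays, since the labels do not say that they link mice. Promoter sequences are RefSeq's, build GRCm38.p6. Alternatives covered the scaling, offset, filter, probe set rule, arrays left out, the replicate number and the beta-actin ratio.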

Additional observations from a re-analysis of the deposited data

Results flagged for a closer look

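The effect of tamoxifen differed between TG and NTG mice for 4 of the 32 genes by limma's test of the difference itself, 12.5% of them against 14.3% of all genes. For Pdha1 the TG effect minus the NTG effect was 1.47 ± 0.39 (adjusted p = 0.0298), from 0.30 in TG and -1.17 in NTG mice. For Sucla2 it was 1.57 ± 0.40 (adjusted p = 0.0275), from 0.07 in TG and -1.50 in NTG mice. For Ogdh it was -0.95 ± 0.25 (adjusted p = 0.0293), from -1.11 in TG and -0.16 in NTG mice. For Me3 it was -1.43 ± 0.34 (adjusted p = 0.0223), from -1.59 in TG and -0.16 in NTG mice. Without TG tamoxifen 1, or without NTG vehicle 2, 0 of the 32 genes passed this test in limma (13 and 14 at an unadjusted p of 0.05), while 6.54% and 5.72% of all genes passed. All 4 genes passed without the array labelled NTG tamoxifen 1. The beta-actin ratio was higher with tamoxifen in TG and lower in NTG mice, and with it as a covariate the 4 genes did not pass. In that fit 3 of the 4 kept their sign and only 1 stayed within 1.5 times its size. Sucla2 turned to -0.11 (adjusted p = 0.964 in limma).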

How the results depend on the processing

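The counts below are of the 32 genes (33 without a filter) past the threshold in limma, with unadjusted counts beside each 0. Percentages give the share of all genes, or of all probe sets where these were tested, that passed in the same setting. In TG tamoxifen against TG vehicle the count of 13 became 6 with all probe sets (3.1%) and 8 without both arrays with conflicting labels (6.65%). It became 0 with the beta-actin ratio as a covariate (15 unadjusted, 0.0448%) and 0 with TG vehicle 3 regrouped (11 unadjusted, 0%). When 1 array was left out it was 8 to 17 (13.1% to 29.3%). In NTG tamoxifen against NTG vehicle the count of 5 became 12 with median centring (8.71%) and 2 with the mean of the probe sets (1.24%). It became 2 with the replicate block (1.5%) and 1 with TG vehicle 3 regrouped (0.878%). It became 0 with no filter (15 unadjusted, 0.022%), all probe sets (26, 0.0666%), only the arrays compared (16, 0.188%), the beta-actin ratio (4, 0%) and without both conflicting arrays (16, 0.779%). When 1 array was left out it was 0 to 6 (0% to 7.44%). In TG vehicle against NTG vehicle the count of 1 stayed 1 with median centring (4.95%), where Got2 (-0.61) passed and Idh3a (0.73) did not. It became 2 with the filter at the 60th percentile (6.16%) and 5 with all probe sets above the 50th (6.12%). It became 0 with no filter (8 unadjusted, 0.044%), the mean of the probe sets (8, 0.806%), all probe sets (14, 0.198%) and only the arrays compared (9, 0.152%). The same held with the replicate block (9, 0.815%), the beta-actin ratio (8, 0%), TG vehicle 3 regrouped (3, 0%) and without both conflicting arrays (6, 0.0448%). When 1 array was left out it was 0 to 3 (0.0179% to 7.28%). In TG tamoxifen against NTG tamoxifen the count of 20 stayed within 1.5 times, at 17 to 23 when 1 array was left out (30.4% to 42.9%). For the difference between the tamoxifen effects the count of 4 became 8 with the deposited scaling (15.2%) and 7 with median centring (16.6%). It became 7 with the filter at the 60th percentile (19.1%) and 8 with all probe sets above the 50th (10.6%). It became 0 with no filter (15 unadjusted, 1.98%), all probe sets (24, 0.0355%), the beta-actin ratio (0, 0%), TG vehicle 3 regrouped (11, 0%) and without both conflicting arrays (14, 0.582%). When 1 array was left out it was 0 to 11 (5.72% to 22.8%). The change of Idh3a in TG tamoxifen against NTG tamoxifen turned to -0.12 with the mean of its probe sets, of which the brightest alone was higher, and the difference of effects for Sucla2 turned to -0.11 with the beta-actin ratio. The cause of the other shifts was not tested. Arrays with the same replicate number showed little shared deviation (r from -0.09 to 0.09 over 18 pairs, 0 above 0.1, and 6 of 12 arrays closest to their own number). The labels do not say that the numbers link mice, so they were not used as a pairing. With 3 arrays per group these values cannot exclude one. Testing all probe sets above the 50th percentile was chosen after seeing the data.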

Other observations

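Between TG tamoxifen and NTG tamoxifen, 15 of the 28 tested genes around the pathway were lower and 3 higher (64.3% called, background 39.5%). The lowest adjusted p-values belonged to Ldhb (-1.54 ± 0.22, adjusted p = 0.000558), Gpt (-1.80 ± 0.32, adjusted p = 0.00145), Slc25a11 (-0.86 ± 0.17, adjusted p = 0.00221) and Gpd2, the mitochondrial glycerol-3-phosphate dehydrogenase (-1.62 ± 0.35, adjusted p = 0.00425). Of the 22 regulators, 11 were lower and 1 was higher (54.5% called, background 39.5%, with 20.6% lower and 19% higher). Ppara was lower (-2.64 ± 0.26, adjusted p = 0.000204), as were Klf15 (-3.49 ± 0.40, adjusted p = 0.000283) and Ppargc1b, a coactivator of nuclear receptors (-1.75 ± 0.26, adjusted p = 0.000586), while Hif1a was higher (1.77 ± 0.18, adjusted p = 0.000219).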
